A study of Mus musculus with 4 samples.

Results

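The comparison described here is the change in YTHDF1 RIP enrichment between Hepa 1-6 cells with a guide for Usp5 and Hepa 1-6 cells with a control guide. Its members are the genes with a ratio of enrichments of 2-fold or more in either direction, chosen from genes with a mean of 5 or more log2 CPM, which are read counts scaled to library size, over the libraries. These were 134 of the 5126 genes at that level, out of 53465 Ensembl gene IDs in the deposited table. RIP-seq (RNA immunoprecipitation and sequencing) was done with an antibody to YTHDF1 in Hepa 1-6, a mouse hepatocellular carcinoma line. The groups were input and precipitate from sgcontrol cells, given the genotype WT in the labels, and input and precipitate from sgUsp5 cells, which the labels call a knockdown. All 4 groups come from the same parent line and hold 1 library each, of 29898171 to 33941019 counts. Whether the cells with either guide were a pool or a clone is not given in the sources used here.

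YTHDF1 is a cytoplasmic reader protein whose YTH domain binds N6-methyladenosine (m6A) in mRNA, and it is known for promoting translation of bound transcripts. USP5 is a deubiquitinase that takes apart unanchored polyubiquitin chains and can remove ubiquitin from other proteins. The series title states that USP5 stabilizes YTHDF1. The question put by the comparison is which RNAs were recovered to a different extent, relative to other RNAs, when the Usp5 guide was present. Each library is scaled to its own counts, so an overall change in the amount of RNA precipitated cannot be read from these values. In RIP-seq the recovery of an RNA is read as its level in the precipitate over its level in the input lysate. A ratio of 2 such enrichments therefore draws on 4 libraries, and it can move through either pair: the precipitates or the inputs.

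The deposited table lists genes by Ensembl ID and does not pair the IDs with names, and the reference table used here named 0 of them. Gene symbols, functions and sequences are for this reason not given, and 4 IDs are printed, the 2 farthest genes in each direction. The other members are identified by their rank, counted from the gene farthest from no difference. Usp5 itself, whose level would test the label knockdown, Ythdf1 and the hepatocyte markers were therefore not analysed here. With 1 library in each group no difference has a replicate check, no test was made, and only sizes are described. The 95% intervals are from the counts alone. They cover counting error only. The libraries were amplified by PCR and no molecular identifiers are described, so reads can be copies of the same molecule. The intervals may therefore be too narrow even for counting error.

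Enrichment in the precipitate was at least 2-fold higher with sgUsp5 for 75 genes (1.46% of the 5126) and at least 2-fold lower for 59 genes (1.15%), together 2.61%. These counts are what the 2-fold rule selects, and they are given as a description. The median ratio was 2.13-fold among the higher genes (from 2.00-fold to 3.17-fold) and 2.23-fold among the lower genes (from 2.01-fold to 20.4-fold). The counting interval excluded no difference in all 134 members, as it had to for 2-fold differences at these read numbers. It lay wholly beyond 2-fold in only 27 of the higher and 30 of the lower genes. The split between directions depended on the scaling: with library totals in place of TMM factors 52 genes were higher and 78 lower, so that the higher share went from 56.0% to 40%, and 111 of the 134 members were still beyond 2-fold.

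The members lie in the tails of the distribution, and the values show no gap at the limit. The 3 higher genes just inside it had log2 ratios of enrichments of 1.00197, 1.00163 and 1.00051, and the 3 just outside had 0.999, 0.987 and 0.984. Among the lower genes the 3 just inside had -1.0195, -1.0145 and -1.0044, and the 3 just outside had -0.99 each when rounded. A limit of 1.5-fold would have taken in 400 higher and 376 lower genes.

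Each member's log2 ratio of enrichments is its log2 ratio between the RIP libraries (the RIP ratio) minus its log2 ratio between the inputs (the input ratio), both taken as sgUsp5 over sgcontrol. A pair was said to carry the difference when it supplied at least 0.75 of it. The input pair carried the difference in 86 of the 134 members, 47 higher and 39 lower. Both pairs contributed in the remaining 48, 28 higher and 20 lower. The RIP pair carried it in 0 members. This 0 depends on the rule: at 1.5-fold the RIP pair carried the difference in 38 genes, and at a mean log2 CPM of 4 or more in 11. Over all 5126 genes the input part had a median of 0.751 and the RIP part an upper quartile of 0.761, both just past the limit of 0.75. With the limit put at 0.5, the RIP pair supplied the larger part in 8 members, 6 higher and 2 lower, and the input pair in 126.

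**Figure D1:**
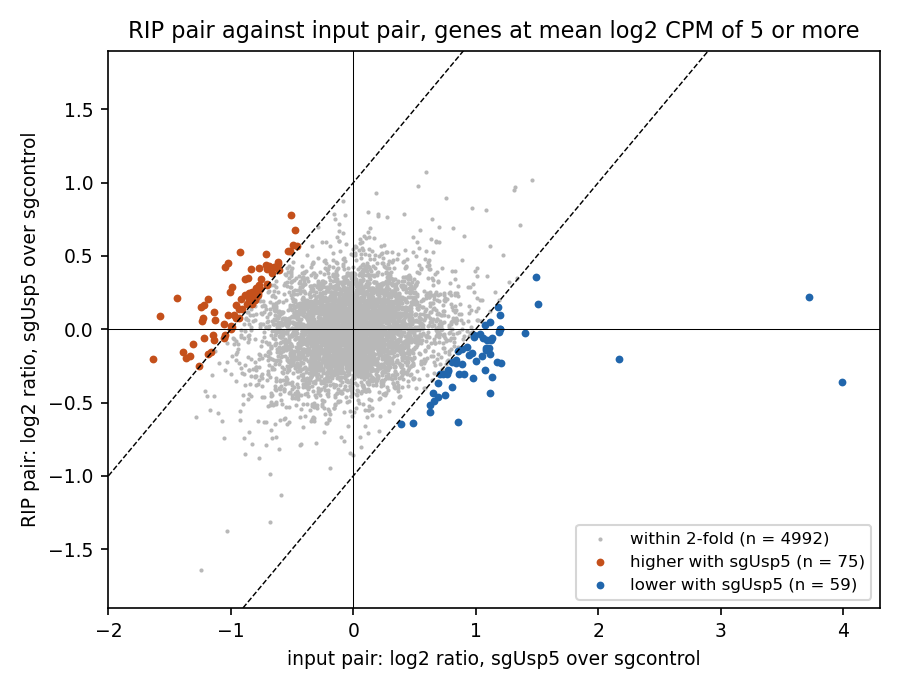
Log2 ratio between the RIP libraries (vertical axis) against log2 ratio between the inputs (horizontal axis), both sgUsp5 over sgcontrol, for the 5126 genes at a mean log2 CPM of 5 or more, 1 point per gene; the dashed lines mark a 2-fold ratio of enrichments. The 75 higher genes lie to the left, at input ratios of -1.64 to -0.46, and the 59 lower genes to the right, at 0.39 to 3.99, while the RIP ratios of all members lie between -0.65 and 0.78.

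The 2 genes with the largest gain in enrichment had fewer reads in the sgUsp5 input, while their precipitates differed far less. ENSMUSG00000001054 had 1228 reads in the sgcontrol input and 444 in the sgUsp5 input, against 2014 and 1906 reads in the sgcontrol and sgUsp5 RIP libraries. The sgUsp5 input stands apart here, at 14.4 CPM against 43.0 CPM in the sgcontrol input and 56.5 and 60.1 CPM in the precipitates. Its log2 enrichment was 0.39 with sgcontrol and 2.06 with sgUsp5, a 3.17-fold higher value (log2 difference 1.67, counting interval 1.49 to 1.85), of which the input pair supplied a part of 0.945.

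ENSMUSG00000027242 had 3350 reads in the sgcontrol input against 1329 in the sgUsp5 input, and 1515 and 1560 reads in the RIP libraries. The sgcontrol input was the highest of its libraries, and the other 3 lay close together. In CPM the precipitates were 42.5 with sgcontrol and 49.2 with sgUsp5, a RIP ratio of 0.21 (counting interval 0.11 to 0.31). Its log2 enrichment went from -1.47 to 0.19, a 3.15-fold higher value (log2 difference 1.66, interval 1.52 to 1.79), and the input pair supplied a part of 0.871.

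The 2 genes with the largest loss of enrichment stood far from all others, and in each a single input library was out of line. ENSMUSG00000035202 had 382 reads in the sgcontrol input and 6561 in the sgUsp5 input, with 1122 and 778 reads in the precipitates. In CPM these were 13.4, 213, 31.5 and 24.6, so that the sgUsp5 input exceeded each of the other libraries. Its log2 enrichment went from 1.23 to -3.12 (log2 difference -4.35, interval -4.55 to -4.15). The input ratio was 3.99 and the RIP ratio -0.36, and the input pair supplied a part of 0.918.

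ENSMUSG00000098178 had the same shape at a far higher level. Its 5475 reads in the sgcontrol input stood against 77968 in the sgUsp5 input, while the precipitates held 15722 and 16287 reads. The RIP ratio was 0.22, in the direction opposite to the difference, and the input ratio was 3.72, so the input part came to 1.06. The log2 enrichment went from 1.20 to -2.30 (log2 difference -3.50, interval -3.55 to -3.45). These 2 genes made up 44.1% of all reads that the lower members had in the sgUsp5 input library, which is why totals over the lower members are given without them below.

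**Figure D2:**
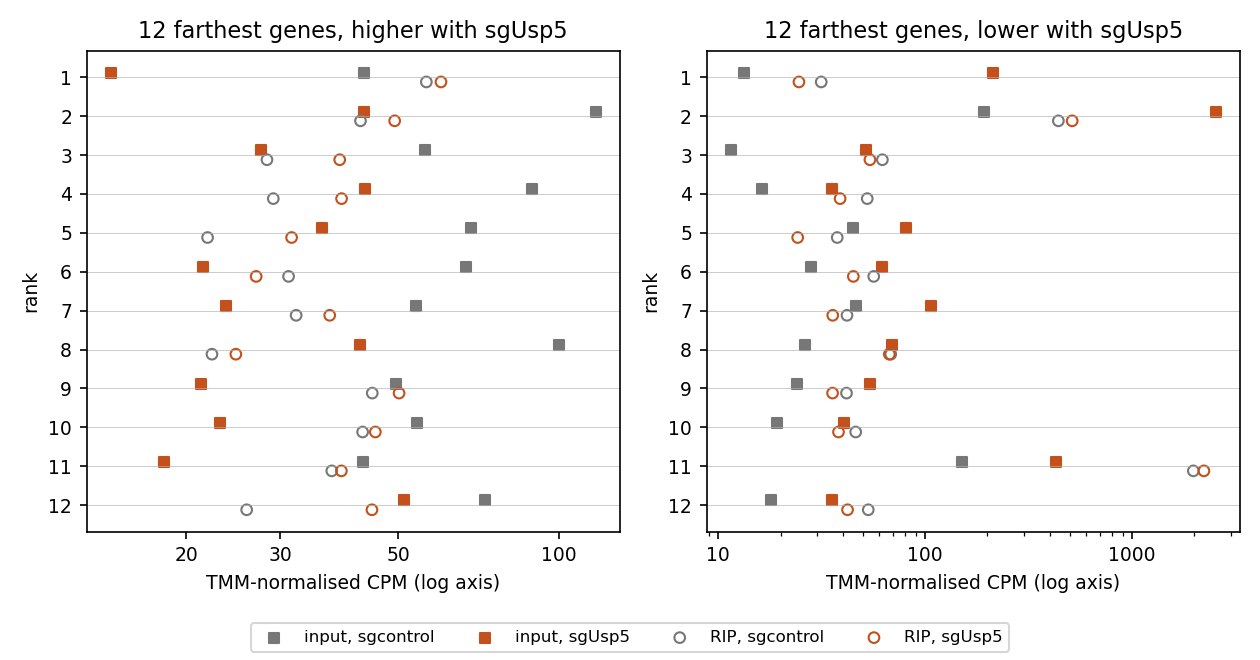
Normalised level (CPM after TMM, log axis) of the 12 farthest genes in each direction in the 4 libraries, 1 library per symbol; squares are inputs, open circles are precipitates, grey is sgcontrol and orange is sgUsp5. Among the higher genes the sgUsp5 input lies below the sgcontrol input in all 12, among the lower genes it lies above it in all 12, and the precipitates of 1 gene mostly lie closer together than its inputs.

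After these, the lower genes reached a plateau quickly. The gene ranked 3 had 328 and 1590 input reads and 2217 and 1714 reads in the precipitates, and its enrichment was 5.16-fold lower. The gene ranked 4 had 465 and 1088 input reads and 1873 and 1230 reads in the precipitates, and was 2.93-fold lower. From rank 4 to rank 59 the fold ran from 2.93 to 2.01 in small steps. The higher genes had no such separate members: rank 3 was 2.78-fold higher, with 1603 and 850 input reads and 1011 and 1230 reads in the precipitates, and rank 12 was 2.45-fold higher.

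With sgcontrol, the most strongly recovered RNA among the members was the lower gene ranked 11. It had 4325 and 13257 input reads and 70633 and 70573 reads in the precipitates, so that both precipitates were far above both inputs. Its log2 enrichment was 3.71 with sgcontrol and 2.37 with sgUsp5, and its RIP ratio was 0.17. The most strongly depleted member was the higher gene ranked 26, with 11676 and 9030 reads in the inputs and only 284 and 403 in the precipitates. Its log2 enrichment was -5.68 and -4.53, below that of every other member with either guide, and the RIP pair supplied a part of 0.585.

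That gene is 1 of the 8 in which the precipitates supplied the larger part. The largest such part, 0.626, was found in the lower gene ranked 51, which had 1412 and 1992 input reads and 849 and 481 reads in the precipitates. Its log2 enrichment went from -1.06 to -2.09, with an input ratio of 0.39 and a RIP ratio of -0.65. Next came the higher gene ranked 12, at a part of 0.605, with 2078 and 1574 input reads and 926 and 1414 reads in the precipitates. In this gene the RIP ratio of 0.78 was the largest among the higher members, beside an input ratio of -0.51. In the lower gene ranked 34 the precipitates went from 1393 to 793 reads and the inputs from 1064 to 1612, and the RIP part was 0.567. The other 4 were higher genes with RIP ratios of 0.54 to 0.58 and parts of 0.501 to 0.555. In all 8 the inputs and the precipitates moved in opposite directions, as they must where the RIP part lies between 0 and 1.

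**Figure D3:**
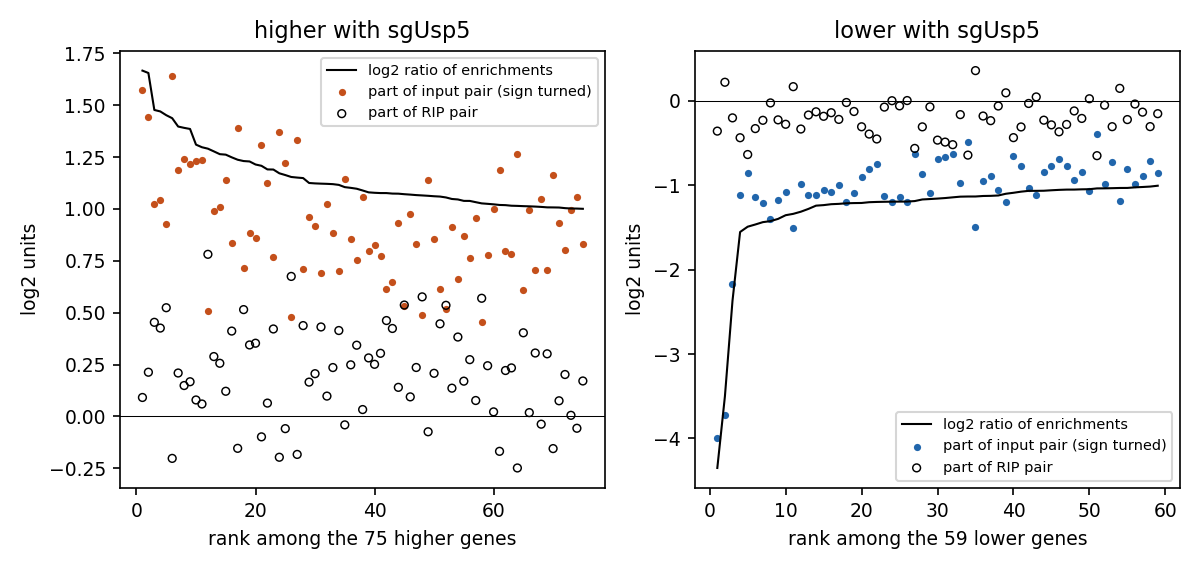
Log2 ratio of enrichments (line), the part of the input pair with its sign turned (filled points) and the part of the RIP pair (open points) for the 75 higher and the 59 lower genes, ordered by rank from the farthest gene; the 2 parts of a gene add up to the line. The input points follow the line for most genes, including the 3 farthest lower ones, and the RIP points scatter around 0.21 in the higher and -0.21 in the lower genes.

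The RIP ratios of the members were small beside their input ratios. Their median was 0.21 among the higher genes (quartiles 0.07 and 0.39) and -0.21 among the lower genes (quartiles -0.32 and -0.06), beside input ratios with medians of -0.92 and 0.99. In 81 of the 134 members the precipitates differed by less than 1.2-fold, as they did at both quartiles of all 5126 genes. The members' RIP ratios were not smaller than those of genes in general. Their quartiles over all 134 were -0.19 and 0.24 (SD 0.30), beside -0.16 and 0.14 (SD 0.24) over all 5126 genes. The precipitates moved in the direction of the difference in 112 members. That number follows in part from the choice of members, as the RIP ratio is a term of the difference. In the remaining 22 the precipitates moved against the difference, so that the inputs differed by more than the ratio of enrichments. The inputs alone were at least 2-fold apart in 57 members, the precipitates alone in 0, and in 77 members neither pair reached 2-fold and the sum of both did.

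Genes that did reach 2-fold in 1 pair were often not members. The inputs were at least 2-fold apart for 98 of the 5126 genes (1.91%), of which 57 were members and 41 were not. The precipitates were at least 2-fold apart for 6 genes (0.117%), 2 higher and 4 lower with sgUsp5, and 0 of these were members. With 0 members among them, the inputs of all 6 had to differ in the same direction as the precipitates. Their ratios of enrichments lay between -0.64 and 0.48 on the log2 scale.

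How far the larger input part is a feature of the members can be read beside the other genes. Over all 5126 genes the input ratio was farther from 0 than the RIP ratio in 3289 (64.2%), and the SD was 0.39 for input ratios and 0.24 for RIP ratios. In the members the input part was the larger in 94.0%. The rule takes genes with a large sum of both parts, so the wider of the spreads supplies more of them, and this share is not a separate result. The same holds for the sign: a higher member needs a low input ratio or a high RIP ratio, and the negative correlation of both ratios over the 134 members (Pearson's r -0.48, Spearman's rho -0.32) comes with that choice. Over all 5126 genes, measured in the same 4 libraries, r was 0.16 and rho 0.13.

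The members were concentrated near the lower limit of abundance. Of the 134, 108 (80.6%) had a mean log2 CPM under 6, where 1859 (36.3%) of all genes compared lay. At a mean log2 CPM of 5 to 5.5, 79 of 925 genes (8.54%) were members. At 5.5 to 6 they were 29 of 934 (3.10%), and at 6 to 7 they were 23 of 1545 (1.49%). Above 7 there were 3 members, 1 of 986 genes at 7 to 8 and 2 of 736 at 8 or more. The spread of the input ratios narrowed over the same classes, from an SD of 0.53 to 0.43, 0.37, 0.29 and 0.29, and that of the RIP ratios from 0.29 to 0.20. What part this spread has in the membership of single genes was not tested.

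The 3 members above 7 log2 CPM have the most reads behind them. ENSMUSG00000098178 and the lower gene ranked 11, both described above, were the pair at 8 or more. The other was the higher gene ranked 18, with 13189 and 8657 input reads and 4171 and 5294 reads in the precipitates. Its log2 enrichment was -1.98 with sgcontrol and -0.75 with sgUsp5, and both pairs contributed, with an input ratio of -0.72 and a RIP ratio of 0.51.

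A mean level of 5 can hide a low value in 1 library. In 95 of the 134 members at least 1 library was under a log2 CPM of 5, and 39 members were at or above it in every library. Of all 5126 genes compared, 4245 were at or above it in every library, a far larger share than among the members. In the lower genes it was mostly the sgcontrol input that was low (43 of 59 genes), and in the higher genes the sgUsp5 input (34 of 75) and the sgcontrol RIP library (23 of 75). Members that pass on their mean through the high library had to differ, so these numbers describe the choice.

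The lower genes had a median of 749 reads in the sgcontrol input (from 328 to 5475) and 1590 in the sgUsp5 input (from 694 to 77968). In the precipitates their medians were 2013 reads with sgcontrol (from 849 to 70633) and 1521 with sgUsp5 (from 481 to 70573). The sgcontrol input held the lowest of these medians. The higher genes had medians of 1854 reads (from 825 to 13189) in the sgcontrol input and 1083 (from 444 to 9030) in the sgUsp5 input. Their medians in the precipitates were 1488 (from 284 to 4659) and 1435 (from 403 to 5294). These are raw reads, and the sgUsp5 RIP library had fewer counts in all. In CPM the sgcontrol and sgUsp5 precipitate medians were 41.7 and 45.3 for the higher genes. For the lower genes they were 56.4 and 48.0 CPM.

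As shares of each library, the 75 higher genes held 0.636% of counts in the sgcontrol input and 0.365% in the sgUsp5 input, but 0.381% and 0.440% in the sgcontrol and sgUsp5 precipitates. The sgcontrol input was the library that stood out. The 57 lower genes other than the 2 farthest held 0.159% and 0.338% of the inputs and 0.546% and 0.538% of the precipitates. The closeness of these precipitate totals rests heavily on the gene ranked 11, whose RIP ratio of 0.17 ran against the group. It had 70633 and 70573 of the 202123 and 177897 precipitate reads of all lower members, whose median RIP ratio was -0.21.

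The members differed in where they started. The higher genes were mostly under-represented in the sgcontrol precipitate, with a median log2 enrichment of -0.83 (quartiles -1.27 and -0.22), and lay on both sides of no enrichment with sgUsp5, with a median of 0.26 (quartiles -0.15 and 0.95). With sgcontrol 32 of the 75 were depleted at least 2-fold and 2 were enriched at least 2-fold. With sgUsp5 these numbers were 4 and 15. In 36 genes the sign changed from depleted to enriched, 27 were depleted with either guide and 12 were enriched with either guide. Over all 5126 genes 418 changed from depleted to enriched and 405 from enriched to depleted. At least 2-fold depletion was found for 563 of the 5126 with sgcontrol and 418 with sgUsp5, and at least 2-fold enrichment for 453 and 332.

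The lower genes showed the mirror image. Their median log2 enrichment was 1.24 with sgcontrol (quartiles 0.51 and 1.63) and -0.01 with sgUsp5 (quartiles -0.73 and 0.48). At least 2-fold enrichment was found for 37 of the 59 with sgcontrol and for 2 with sgUsp5, and at least 2-fold depletion for 1 and 10. In 25 genes the sign changed from enriched to depleted, 29 were enriched with either guide and 5 were depleted with either guide. The enrichment lay nearer to none with sgUsp5 in 48 of the 75 higher genes (64%) and 41 of the 59 lower genes (69.5%), beside 57.9% of all 5126 genes. The sgcontrol enrichment enters the ratio of enrichments with the opposite sign, so these starting points follow in part from how members are chosen.

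**Figure D4:**
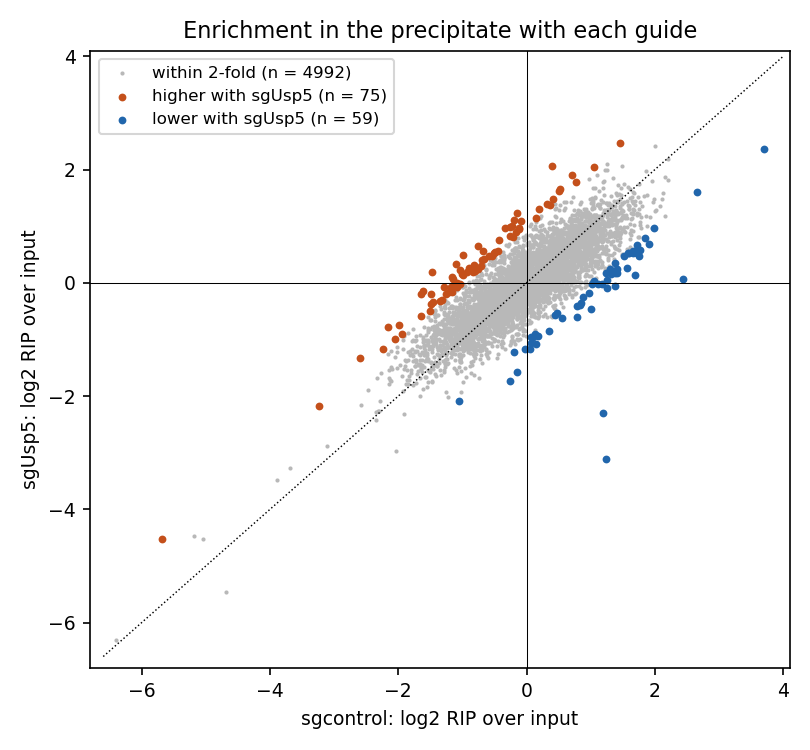
Log2 RIP over input with sgUsp5 (vertical axis) against sgcontrol (horizontal axis) for the 5126 genes at a mean log2 CPM of 5 or more; the dotted line marks equal enrichment with both guides. The higher genes lie mostly at negative sgcontrol values (median -0.83), the lower genes mostly at positive ones (median 1.24), and 2 lower genes fall to -2.30 and -3.12 with sgUsp5.

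Genes whose difference came from both pairs differed little in size from those carried by the inputs. The 28 higher genes of this kind had a median log2 ratio of enrichments of 1.09, as did the 47 carried by the inputs, with median RIP ratios of 0.42 and 0.09. They started lower, at a median sgcontrol log2 enrichment of -1.11 against -0.66. The 20 lower genes with both pairs had a median log2 ratio of enrichments of -1.15, against -1.19 in the 39 carried by the inputs, and median RIP ratios of -0.41 and -0.12.

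Cell cycle genes are the group of known function that could be matched by Ensembl ID. The lists are mouse markers of the G1, S and G2/M phases from the scran package, and they were taken after results of these data were known. Of 103 G1 markers 64 were at a mean log2 CPM of 5 or more, of 72 S markers 43, and of 86 G2/M markers 61. Among these 168 markers 4 were members (2.38%), beside 2.61% of all genes compared, a share near the background. They were 2 G1 markers, 1 higher (rank 59) and 1 lower (rank 21), 1 higher S marker (rank 69) and 1 lower G2/M marker (rank 24). The inputs carried the difference in the higher G1 marker and the G2/M marker, and both pairs contributed in the other two.

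The median log2 ratio of enrichments was 0.15 for the G1 markers (quartiles -0.12 and 0.34), -0.03 for the S markers (quartiles -0.16 and 0.16) and -0.03 for the G2/M markers (quartiles -0.30 and 0.24), beside 0.01 for all 5126 genes (quartiles -0.25 and 0.28). Of the G1 markers 42 of 64 (65.6%) were above 0, beside 51.3% of all genes. Their median input ratio was -0.15 and their median RIP ratio 0.01, beside -0.02 and -0.01 for all genes. The same 2 medians were -0.015 and 0.018 for the S markers and 0.004 and -0.015 for the G2/M markers.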

How the data were processed

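Raw read counts per Ensembl gene ID were deposited by the authors as 1 table of 4 columns. Reads were aligned and counted with HISAT2 2.1.0 and featureCounts 1.6.3 on mm10, per the submitters' processing notes. Annotation release, strand setting, and treatment of duplicates and multiply matching reads are not stated there, so overlapping or near-identical genes can share or lose reads. Columns were matched to samples by the short names in the labels.

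Counts were scaled with TMM factors (0.926 to 1.06, edgeR 4.0.16, R 4.3.3). Log2 CPM was computed with 0.5 counts added, scaled to each library's size. Intervals (95%) used a variance equal to the summed reciprocals of the 4 counts. A fit with fraction, guide and their interaction has 0 residual degrees of freedom, so no test was made. The code was tested on simulated data.

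Members and lists were chosen with earlier results of these data known. The rule for single genes named every member by symbol, which could not be done, as the table and the reference (49997 genes, GRCm38.p6) share no IDs. The farthest 2 per direction are printed instead. Other members are singled out by rank, after their values were seen, and the symbol-based gene lists and cell type markers were not analysed here. Phase markers are from scran 1.30.0: IDs that were the higher gene in at least 10 marker pairs of a phase, more often than the lower gene there, and in no other phase.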

Additional observations from a re-analysis of the deposited data

Results flagged for a closer look

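Among the 4 genes given by ID, RIP over input lay on opposite sides of no enrichment with the 2 guides in 3. With 1 library per group these differences were not tested. ENSMUSG00000027242 had log2 enrichments of -1.47 (sgcontrol) and 0.19 (sgUsp5), a difference of 1.66. ENSMUSG00000035202 had 1.23 and -3.12, a difference of -4.35, and ENSMUSG00000098178 had 1.20 and -2.30, a difference of -3.50. In all 3 the input pair carried the difference.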

How the results depend on the processing

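DESeq2 size factors (DESeq2 1.42.0), upper-quartile factors, library totals, TMM over genes at 1 CPM or more and 2 counts added left the counts of higher genes, lower genes and genes carried by the inputs, the precipitates or both within 1.5 times. Asking in addition that the counting interval exclude no difference could drop no member at these read numbers. Under library totals 52 genes were higher and 78 lower. Counts moved with the genes compared and the size of the rule, by construction. In the order higher, lower, carried by inputs, by precipitates, by both, a mean log2 CPM of 4 gave 199, 192, 225, 11 and 155, and a mean of 1 CPM gave 1789, 1837, 2304, 321 and 1001. A mean log2 CPM of 6 gave 19, 7, 22, 0 and 4, and a log2 CPM of 5 in every library gave 27, 12, 32, 0 and 7. A fold of 1.5 gave 400, 376, 432, 38 and 306. With the carrying part put at 0.5, 126 genes fell to the inputs, 8 to the precipitates and 0 to both. The 4 genes given by ID kept their direction under the scalings and the added count. Scaling shifts all genes alike: library totals took the median of all genes from 0.01 to -0.04 and ENSMUSG00000001054, ENSMUSG00000027242, ENSMUSG00000035202 and ENSMUSG00000098178 to 1.614, 1.602, -4.402 and -3.554. DESeq2 size factors took the median of all genes to 0.04 and that of the S markers from -0.03 to 0.0015, the same shift. No paired analysis was possible because each group has 1 library and the result comes from no test. Symbol-based gene lists were not run. The lowest count of a member was 284 reads, and counting error alone leaves the interval of 77 of the 134 members reaching inside the 2-fold limit. Scatter between libraries beyond counting error is not measured without replicates.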
